A study of Mus musculus with 2 samples.

Results

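Interferon-stimulated genes are the genes that cells switch on when interferon binds its receptors. The 46 genes described here were taken from a list of mouse symbols, 33 in families led by type I interferon and 13 in families led by interferon gamma, and each was found on the arrays through the transcript accession of its probes. The list was chosen with earlier results of these data known. Counts of members set beside all genes therefore describe these data and are no independent support. A probe was matched for 43 of the 46 (56 probes), among 20886 genes with 27508 probes in all, and the unmatched genes were Oas1b, Mx1 and Mx2. A probe counted as measured if both of its channels stood well above background. By that rule 41 members had a ratio in liver and 40 in adipose tissue, with 40 in both. Oas1g and Oas3 were not well above background in liver, and Oas1g, Oas3 and Tgtp1 were so in only 1 channel in adipose tissue.

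The study compared male C57BL/6J WT mice fed high-fat chow (HFD) over 4 weeks with mice fed a normal diet (ND), in liver and in adipose tissue. All animals were wild type, kept pathogen-free under a 12-h light cycle, and neither their age nor the fat depot was given in the labels. Per the labels, RNA from 10 livers and 10 adipose tissues was pooled by diet, and whether that number is per diet or in all is not stated there. A single 2-colour Agilent array per tissue held the HFD pool in the red channel (Cy5) and the ND pool in the green channel (Cy3). The median spot read 117 in HFD livers and 87.5 in ND livers over local backgrounds of 48 and 28, and 247 in HFD fat and 92 in ND fat over 52.5 and 28. There was 1 array per tissue with no dye swap, so each ratio below is a single measurement, diet and dye cannot be told apart, the spread between mice is unknown and no p-value can be given.

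Type I interferons signal through a receptor of the Ifnar1 and Ifnar2 chains to a complex that includes Stat2 and Irf9 and binds the interferon-stimulated response element (ISRE) and switches on antiviral genes. Interferon gamma signals through Ifngr1 and Ifngr2, acts on genes at the gamma-activated site (GAS) and switches on Irf1 and the guanosine triphosphate-binding proteins that attack microbes living inside cells. In liver and fat these genes are known from viral infection and from resident and recruited immune cells as well as from the parenchymal cells themselves.

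Promoters of members are shown first because both families are known to answer through these elements. RefSeq promoters on GRCm38.p6, from 250 bases before to 50 bases after a gene's start, were matched for 33 members. The ISRE was searched as GAAA, any 2 bases and GAAA again, on both strands, and the GAS as TTCNNNGAA, which reads the same on both strands, and matches may overlap each other. Of the type I-led members 13 of 23 (56.5%) held the ISRE letters, and of the interferon gamma-led members 8 of 10 (80.0%), against 1079 of 27025 genes with a promoter (3.99%). The GAS letters were in 6 of 23 type I-led promoters (26.1%) and 6 of 10 interferon gamma-led ones (60.0%), against 9.55% of all. A match describes the letters in the window and shows no binding. The 5 promoters below are those of members the results turn on, written 5′ to 3′ along the gene with the matches in capitals: Ifit1 with 2 ISRE matches, Isg15 with 3 that overlap, Gbp3 with 2 that overlap, Irf1 with 1 GAS match, and Bst2 with 2 ISRE matches that overlap each other and a GAS match.
Ifit1 (chr19:34640639-34640938, plus strand): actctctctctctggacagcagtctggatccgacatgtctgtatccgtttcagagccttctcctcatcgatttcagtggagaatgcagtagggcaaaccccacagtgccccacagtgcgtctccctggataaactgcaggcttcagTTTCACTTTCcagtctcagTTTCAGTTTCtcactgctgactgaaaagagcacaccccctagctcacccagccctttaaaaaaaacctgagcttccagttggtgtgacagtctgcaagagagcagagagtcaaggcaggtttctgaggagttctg
Isg15 (chr4:156200769-156201068, minus strand): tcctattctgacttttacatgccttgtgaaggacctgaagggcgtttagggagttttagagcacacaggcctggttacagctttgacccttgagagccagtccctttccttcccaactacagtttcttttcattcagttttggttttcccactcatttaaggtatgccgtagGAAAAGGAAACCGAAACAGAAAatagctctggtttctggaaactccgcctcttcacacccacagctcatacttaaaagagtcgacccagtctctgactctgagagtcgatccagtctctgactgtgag
Gbp3 (chr3:142559794-142560093, plus strand): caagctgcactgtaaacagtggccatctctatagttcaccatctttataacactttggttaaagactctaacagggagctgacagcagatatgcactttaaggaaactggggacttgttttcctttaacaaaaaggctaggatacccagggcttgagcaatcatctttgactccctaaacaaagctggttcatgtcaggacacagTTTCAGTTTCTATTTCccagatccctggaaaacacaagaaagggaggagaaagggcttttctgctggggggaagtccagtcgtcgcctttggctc
Irf1 (chr11:53769764-53770063, plus strand): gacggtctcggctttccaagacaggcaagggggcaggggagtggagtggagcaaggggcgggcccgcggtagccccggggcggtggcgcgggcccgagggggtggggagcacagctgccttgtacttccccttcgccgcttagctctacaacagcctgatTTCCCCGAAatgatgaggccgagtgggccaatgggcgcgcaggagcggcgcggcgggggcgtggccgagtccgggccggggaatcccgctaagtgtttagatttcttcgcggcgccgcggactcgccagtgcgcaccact
Bst2 (chr8:71537423-71537722, minus strand): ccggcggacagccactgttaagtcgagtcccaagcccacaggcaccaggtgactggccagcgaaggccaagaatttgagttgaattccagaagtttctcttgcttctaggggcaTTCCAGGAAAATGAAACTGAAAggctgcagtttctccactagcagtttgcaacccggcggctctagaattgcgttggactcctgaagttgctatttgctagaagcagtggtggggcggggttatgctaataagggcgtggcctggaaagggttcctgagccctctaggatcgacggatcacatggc

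In 3 members of the immunity-related GTPase family the GAS letters began 11 bases before the ISRE letters, namely Igtp, Irgm2 and Tgtp1. The spacing was picked after the promoters had been read, and 5 of the 27025 genes with a promoter held it (0.0185%), the others being Tgtp2 and Gm12185. The windows of 51 bases around the pair are printed to show how alike the pair's surroundings are in these genes; the first capitals mark the GAS and the next the ISRE.
Igtp (chr11:58199496-58199546, plus strand): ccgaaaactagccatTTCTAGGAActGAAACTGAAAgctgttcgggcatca
Irgm2 (chr11:58214887-58214937, plus strand): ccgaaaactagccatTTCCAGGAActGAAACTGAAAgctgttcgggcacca
Tgtp1 (chr11:48992299-48992349, minus strand): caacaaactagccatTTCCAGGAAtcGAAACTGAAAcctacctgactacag
The Igtp and Irgm2 windows differed at 2 of 51 bases, Igtp and Tgtp1 at 17, and Irgm2 and Tgtp1 at 15.

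In liver most members were higher in the HFD pool, by a modest factor. The log2 ratio of HFD over ND lay above 0 for 39 of 41 measured members, with a median of 0.55 (1.46-fold), against a median of 0.01 over all 13642 genes, 52.3% of which lay above 0. At least 1.5-fold higher (log2 ratio 0.58) were 16 members, where 2.46% of all genes were, and 1 member was at least 1.5-fold lower, where 1.8% of all genes were. At 2-fold, 3 members were higher (0.491% of all genes) and 1 lower (0.579%). The type I-led members had a median of 0.50 with quartiles of 0.34 and 0.75 (28 measured, 27 above 0), and the interferon gamma-led members a median of 0.55 with quartiles of 0.39 and 0.63 (13 measured, 12 above 0), so the families lay side by side. The scanner software's own error, which covers the spot and not the animals, had a median of 0.21 on the log2 scale, and 27 members were higher by more than 2 such errors, where 5.81% of all genes were, and 1 lower, where 4.29% were. With the deposited local backgrounds used unchanged, 39 of 41 members still lay above 0 in liver, but the medians were 0.12 and 0.24 and only 2 members were at least 1.5-fold higher, where 0.777% of all genes were; Ifit1 was then 0.28, Gbp3 0.39 and Usp18 0.72. Centring on the median in place of loess gave 34 members, where 17% of all genes passed. It left the median of all genes at 0.32, and relative to that the members' median was 0.60.

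**Figure D1:**
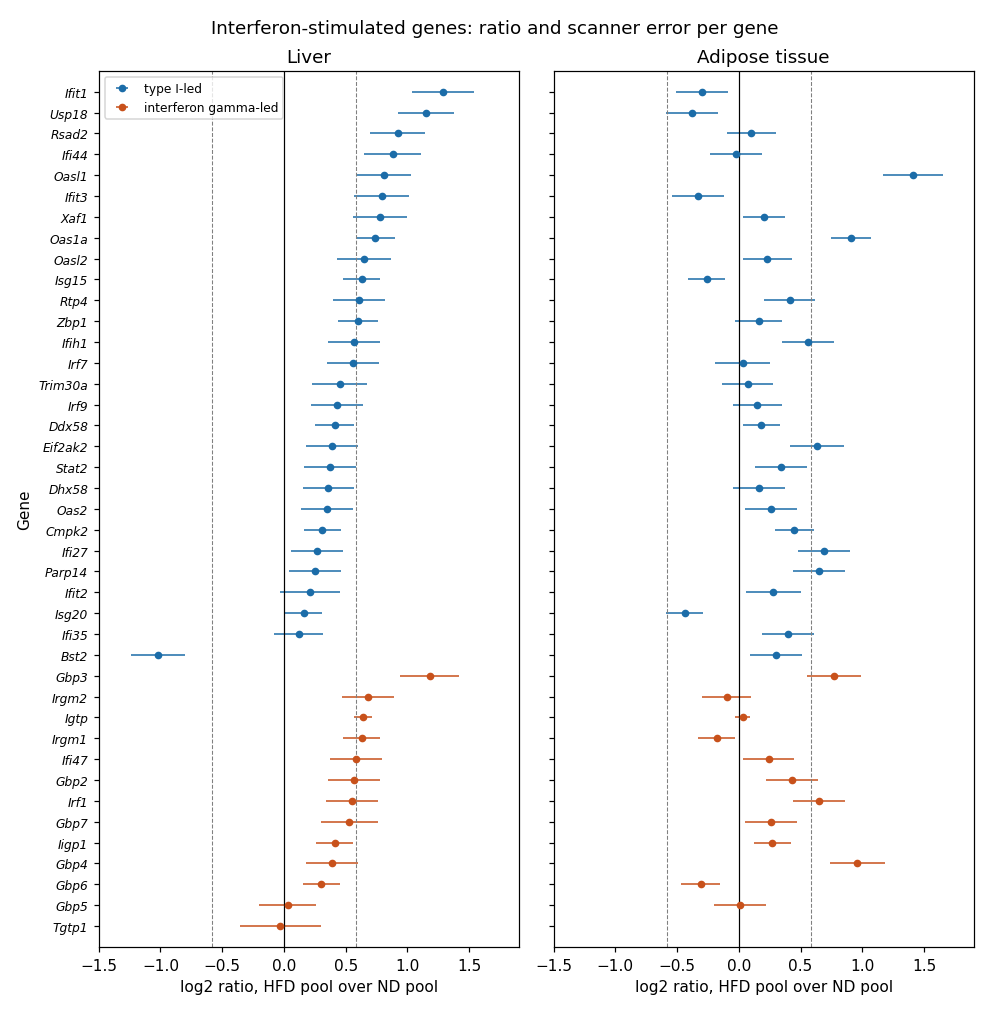
Log2 ratio of HFD over ND for each gene of the type I-led (blue) and interferon gamma-led (orange) families, by tissue, 1 array each; bars show 1 scanner error and dashed lines 1.5-fold. In liver 39 of 41 points lie above 0 with Bst2 far below, and in adipose tissue 31 of 40 do.

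The IFIT proteins bind foreign RNA and block its translation. Ifit1 had a log2 level of 9.58 in HFD livers and 8.29 in ND livers, a log2 ratio of 1.29 ± 0.25 (scanner error, as for every error below), or 2.44-fold higher in HFD. Ifit3 read 10.78 in HFD livers and 9.99 in ND livers (0.79 ± 0.22). Ifit2, a dimmer spot, read 7.43 in HFD livers and 7.22 in ND livers, and its ratio of 0.21 was within 1 error of 0. Thus 2 of the 3 IFIT genes were apart between the liver pools by more than 2 errors.

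Isg15 is a ubiquitin-like protein that is joined to other proteins during infection, and Usp18 is the protease that removes it and also damps the type I receptor. Usp18 read 11.39 in HFD livers and 10.24 in ND livers, a ratio of 1.15 ± 0.23 (2.23-fold). Isg15 had 2 probes, with ratios of 0.71 and 0.55, and a mean level of 10.04 in HFD livers and 9.41 in ND livers. Both genes of this system were thus higher in the HFD liver pool, Usp18 the more so.

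The OAS family makes the messenger that activates RNase L. Oasl1, a relative without that enzyme activity known to restrain translation of Irf7, read 12.42 in HFD livers and 11.61 in ND livers (0.81 ± 0.22). Oas1a gave 0.75 and 0.73 on its 2 probes, and Oasl2 gave 0.65 ± 0.22. Oas2 gave 0.35, under 2 errors. All 4 measured genes of the family lay above 0 in liver, with a median of 0.69.

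Among the sensors of nucleic acid, Ifih1 (MDA5) and Ddx58 (RIG-I) detect viral RNA, Dhx58 (LGP2) tunes them, and Zbp1 senses Z-form nucleic acid. Zbp1 had the highest ratio of the 4 at 0.60 ± 0.16, followed by Ifih1 at 0.57 ± 0.21, Ddx58 at 0.41 ± 0.16 and Dhx58 at 0.36 ± 0.21. These 4 ratios cannot be ordered within their errors. The transcription factors were as close together: Irf7, the factor that amplifies type I interferon production, gave 0.56, Irf1 0.55, Irf9 0.43 and Stat2 0.37, each with an error of 0.21, so none reached 1.5-fold and Stat2 stayed under 2 errors.

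The single antiviral effectors were the most divided group. Rsad2, or viperin, which makes a nucleotide analogue that stops viral polymerases, read 10.65 in HFD livers and 9.73 in ND livers (0.92 ± 0.22). Cmpk2, its genomic neighbour, gave 0.31 on both of its probes, and Eif2ak2 (PKR), the RNA-activated kinase that shuts down translation, gave 0.39 ± 0.21. Isg20, an RNA exonuclease, gave 0.16 ± 0.15. Bst2 (tetherin), which holds budding viruses at the cell surface, read 12.39 in HFD livers and 13.41 in ND livers, a ratio of -1.02 ± 0.22, or 2.03-fold lower in HFD. It was the 1 member clearly below 0 in liver.

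Of the other type I-led members in liver, Ifi44 (8.77 in HFD livers, 7.89 in ND livers; 0.88 ± 0.23), the pro-apoptotic Xaf1 (0.78 ± 0.22) and the chaperone Rtp4 (0.61 ± 0.21) were at least 1.5-fold higher. Trim30a gave 0.45, Ifi27 0.27, the ADP-ribosyltransferase Parp14 0.25 and Ifi35 0.12, of which only Trim30a passed 2 errors. With the deposited local backgrounds Ifi44 was 0.12, Xaf1 0.18 and Rtp4 0.40, so none of these reached 1.5-fold. The Xaf1 value of 0.78 rests on 1 of its 2 probes. The other probe was not well above background in either channel, at a ratio of 0.09, and without the filter the mean was 0.43.

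The interferon gamma-led members in liver were led by Gbp3, a guanylate-binding protein, which read 10.18 in HFD livers and 9.0 in ND livers, a ratio of 1.18 ± 0.24 (2.27-fold). Its relatives gave 0.57 (Gbp2), 0.53 (Gbp7), 0.39 (Gbp4), 0.30 (Gbp6) and 0.03 (Gbp5). The 2 Gbp6 probes disagreed, at -0.05 and 0.65, so its mean is uncertain. The Gbp genes therefore spread from 0.03 to 1.18 in the same pools.

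The immunity-related GTPases coat and break the vacuoles in which parasites live, with the Irgm proteins guarding the host's own membranes. Irgm2 read 12.54 in HFD livers and 11.86 in ND livers (0.68 ± 0.21), and Irgm1 gave 0.62 and 0.63 on its 2 probes. Igtp (Irgm3) read 12.48 in HFD livers and 11.83 in ND livers, and its probe was printed 10 times: the 10 ratios ran from 0.58 to 0.68 with a mean of 0.64 and an SD of 0.03. That SD is the spread of spots on 1 array. Ifi47 gave 0.58 ± 0.21 and Iigp1 0.41 ± 0.15 (0.43 and 0.38 by probe). Tgtp1 was the exception, at 6.85 in HFD livers and 6.88 in ND livers (-0.03 ± 0.33), next to the lowest measurable levels of 6.37 in HFD and 6.19 in ND. Tgtp2, its near-identical copy and not a member, gave 0.71 in liver at a log2 level of 11.29 in HFD, and whether the probes tell the copies apart was not tested.

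**Figure D2:**
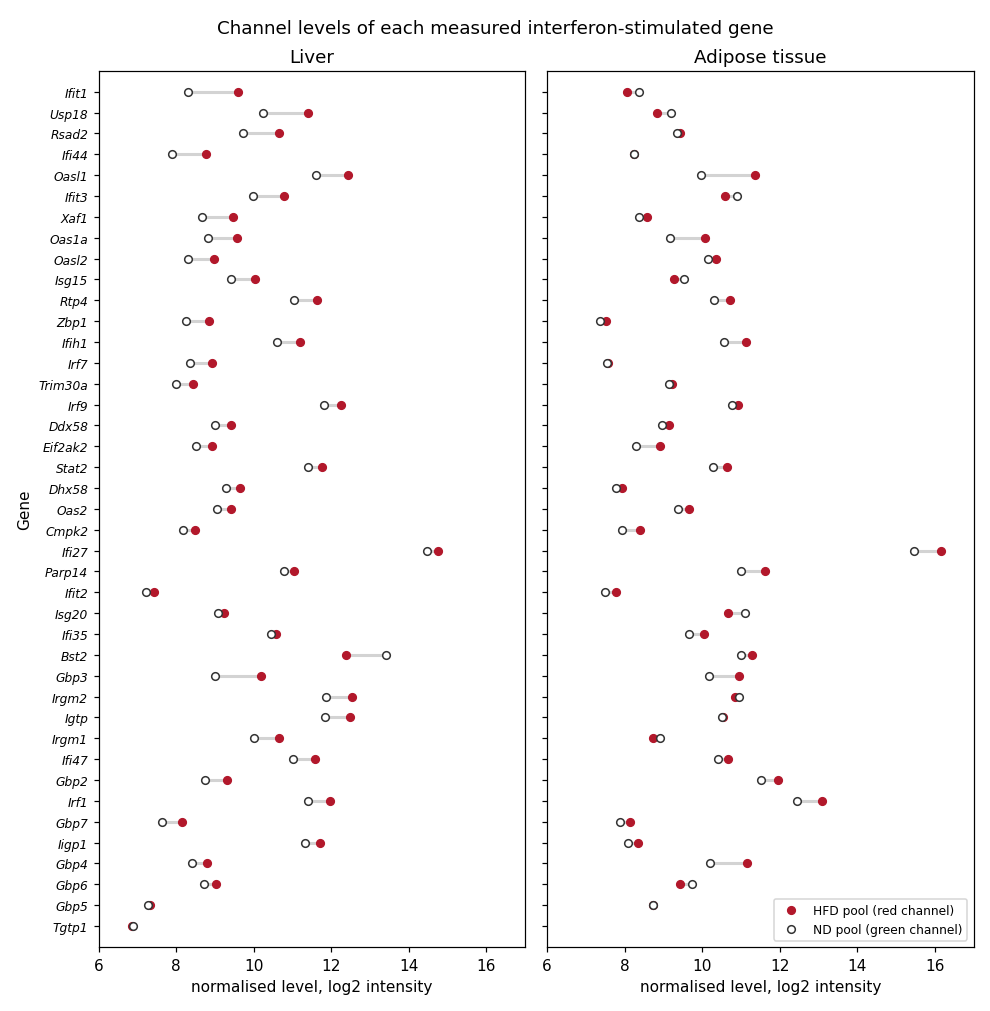
Normalised log2 intensity of each measured member in the HFD pool (filled red points) and the ND pool (open points), joined by a line, for liver and adipose tissue, 1 array each. In liver the filled point lies right of the open one for 39 of 41 genes, with Bst2 farthest the other way, and in adipose tissue Oasl1 has the longest line.

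In adipose tissue the same genes were nearer to 0 and more mixed. That order did not hold with the deposited local backgrounds, which gave members' medians of 0.13 in liver and 0.23 in adipose tissue. Median centring gave 0.91 and 0.96, but it left the medians of all genes at 0.32 and 0.69. Relative to those, the members' medians were 0.60 in liver and 0.27 in adipose tissue. Of 40 measured members 31 lay above 0 (49.3% of all 14315 genes did), with a median log2 ratio of 0.23 (1.17-fold) against -0.01 over all genes. At least 1.5-fold higher were 8 members, where 9.14% of all genes were, and no member was at least 1.5-fold lower, where 10.2% were. At 2-fold there was 1 higher (4.23% of all genes) and none lower (5.13%). More than 2 errors apart were 11 higher members (15.5% of all genes) and 1 lower (15.8%). All genes spread more widely in adipose tissue, with quartiles of -0.26 and 0.24, than in liver, with quartiles of -0.11 and 0.13. The type I-led median was 0.21 (28 measured, 22 above 0) and the interferon gamma-led median 0.25 (12 measured, 9 above 0).

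Oasl1 led the members in adipose tissue, with 11.37 in HFD and 9.96 in ND, a ratio of 1.41 ± 0.24 (2.66-fold). Gbp4 followed at 11.16 in HFD and 10.20 in ND (0.96 ± 0.22). Oas1a read 10.08 in HFD and 9.17 in ND (0.91 ± 0.16), and Gbp3 10.95 in HFD and 10.18 in ND (0.77 ± 0.22). These 4 genes passed 2 errors in fat, as did Gbp2 at 0.43 ± 0.21. Oas2 (0.26), Oasl2 (0.23), Gbp7 (0.26) and Gbp5 (0.01) did not. The Gbp6 probes disagreed again, at -1.01 and 0.40.

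The remaining members at least 1.5-fold higher in adipose tissue were Ifi27 (16.15 in HFD, 15.46 in ND; 0.69 ± 0.21), Irf1 (13.08 in HFD, 12.44 in ND; 0.65 ± 0.21), Parp14 (0.65 ± 0.21) and Eif2ak2 (0.63 ± 0.22). Ifih1 reached 0.56 ± 0.21 and Cmpk2 0.45 ± 0.16, short of 1.5-fold and past 2 errors. Irf7, Irf9, Ddx58, Dhx58 and Rsad2 gave between 0.03 and 0.18, each within its error or close to it. Stat2 (0.34), Rtp4 (0.41), Ifi35 (0.40), Bst2 (0.30), Ifit2 (0.28), Iigp1 (0.27), Ifi47 (0.24), Xaf1 (0.20), Trim30a (0.07) and Ifi44 (-0.02) lay within 2 errors of 0. Zbp1 gave 0.16 as the mean of probes at 0.54 and -0.22, which disagreed.

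Ifit1, Ifit3 and both genes of the ISG15 system lay below 0 in adipose tissue, while Ifit2 lay above it. Ifit3 read 10.58 in HFD and 10.91 in ND (-0.33 ± 0.21), Ifit1 8.07 in HFD and 8.37 in ND (-0.30 ± 0.21), Usp18 8.83 in HFD and 9.21 in ND (-0.38 ± 0.21) and Isg15 9.27 in HFD and 9.53 in ND (-0.26 ± 0.15). None of the 4 passed 2 errors, and the 2 Isg15 probes gave -0.34 and -0.18. Isg20 was the only member lower by more than 2 errors, at 10.67 in HFD and 11.11 in ND (-0.44 ± 0.15). Irgm1 (-0.18), Irgm2 (-0.10) and Igtp (0.03, with 10 spots from 0.01 to 0.06) stayed near 0, where the immunity-related GTPases had a median of 0.03.

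These negative values depend on the normalization. As scanned, Ifit1 read 633 in HFD fat and 188 in ND fat, and Usp18 1102 in HFD fat and 312 in ND fat, since the red channel was brighter overall. Centring each array on its median in place of loess put Ifit1 at 0.30, Usp18 at 0.40, Ifit3 at 0.63, Isg15 at 0.39 and Isg20 at 0.53 in adipose tissue, because it moved the median of all genes to 0.69; relative to that median they were -0.39, -0.29, -0.06, -0.30 and -0.17. Bst2 in liver stayed below 0 under it, at -0.48, or -0.79 relative to an all-gene median of 0.32.

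**Figure D3:**
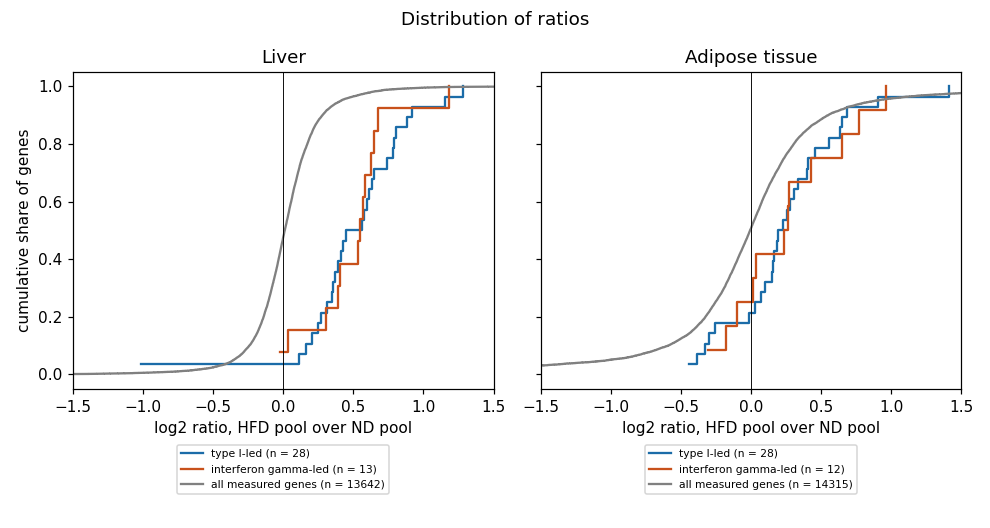
Cumulative share of genes by log2 ratio of HFD over ND, for the type I-led members, the interferon gamma-led members and all measured genes, liver and adipose tissue. In liver both family curves lie to the right of all genes, with medians of 0.50 and 0.55 against 0.01, and in adipose tissue by less, 0.21 and 0.25 against -0.01.

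For members not measured in both channels of the adipose array only a rough value is available. It sets the bright level against the dim channel's own level or the lowest level that counted as above background there, whichever is higher. Oas1g was well above background only in ND, and its value was 1.44-fold lower in HFD. Oas3 and Tgtp1 were so only in HFD, at 1.05-fold and 1.12-fold higher there. For Oas1g and Oas3 the dim channel's own level was used, so the value is the plain ratio and no lower limit. The log2 ratios of Oas1g, Oas3 and Tgtp1 were -0.53, 0.07 and 0.23, with scanner errors of 0.80, 0.82 and 0.76. None of them gives a direction. The Oas1g value rests on 1 of its 2 probes. The other was not well above background in either channel, at a ratio of 0.08, and without the filter the mean of both was -0.22.

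Between tissues, the difference of the 2 ratios (liver minus adipose) had a median of 0.25 over the 40 members measured in both, against 0.01 over all 12689 genes, and 29 members were higher in liver and 11 lower. This order turned with the deposited local backgrounds, to a median of -0.05 (14 higher, 26 lower, all genes -0.02). With median centring the members' median was -0.18 (15 higher, 25 lower), still above that of all genes, -0.38. By more than 2 combined errors, 12 members (30.0%) were higher in liver and 1 (2.5%) lower, against 11.1% and 10.2% of all genes. The 1 lower was Bst2 (-1.32 ± 0.30), and the largest on the other side were Ifit1 (1.58 ± 0.33), Usp18 (1.54 ± 0.31) and Ifit3 (1.12 ± 0.30), followed by Ifi44, Isg15, Rsad2, Irgm1 and Irgm2 at 0.78 to 0.89. With the deposited backgrounds Ifit1 was 0.57, Usp18 1.11, Ifit3 0.73 and Bst2 -1.31. Ratios above 0 in liver and below 0 in adipose tissue were seen for 9 members (22.5%), against 23.4% of all genes, and the reverse for Bst2 alone (2.5%), against 21.9%. None of these differences was tested, as each rests on 1 array per tissue.

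**Figure D4:**
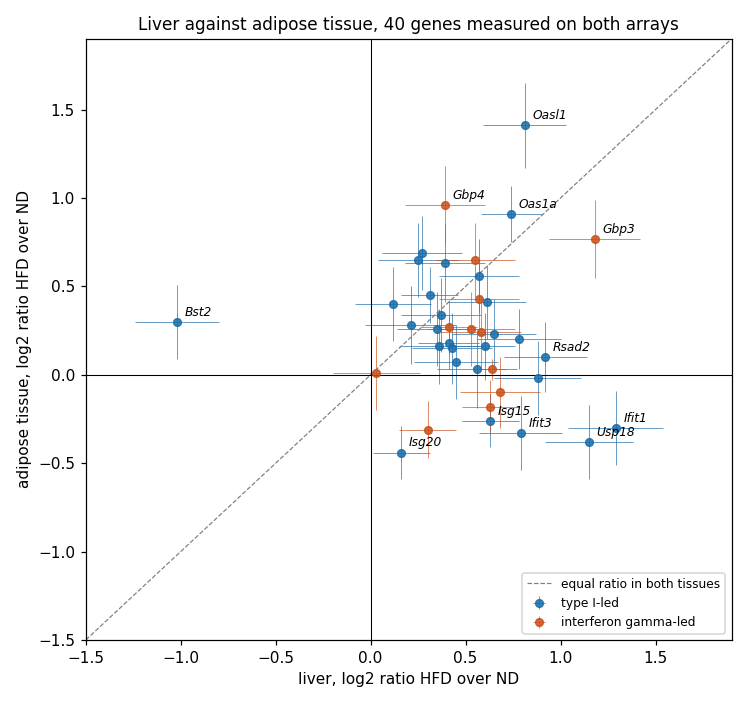
Log2 ratio of HFD over ND in liver against that in adipose tissue for the 40 members measured in both, coloured by family, with 1 scanner error either way and the line of equal ratios. Ifit1 and Usp18 lie high in liver and below 0 in adipose tissue, Oasl1 lies high in both, and Bst2 is alone on the lower side of liver.

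The levels themselves, after the arrays were scaled to each other, differed between tissues by gene. Iigp1 was higher on the liver array, by 3.36 in HFD and 3.23 in ND (log2), and Oasl1 by 1.05 in HFD and 1.65 in ND. Bst2 read 12.39 in HFD liver against 11.29 in HFD fat, and was higher in ND liver than in ND fat by 2.42. Gbp2 was lower on the liver array, by a difference of -2.64 in HFD and -2.78 in ND, and Gbp4 at -2.36 in HFD and -1.79 in ND. Over probes measured on both arrays, 24 of the 40 members were higher in HFD liver than in HFD fat (60.0%) and 20 in the ND pools (50.0%), against 54.2% and 53.1% of all genes. In bulk tissue fewer cells of a type and less RNA per cell cannot be told apart.

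The upstream part of the pathway was flatter in liver than the members. Of 42 pathway genes listed (ligands, receptors, kinases, transcription factors, sensing genes and inhibitors) 35 were measured, with a median of 0.07. Only Socs3 (0.60), a feedback inhibitor of cytokine signalling, was at least 1.5-fold higher, where 2.46% of all genes were. The ligands Ifnb1 and Ifng were not measured, and the 6 of 11 ligands that were ran from -0.24 to 0.04. These 6 were dim, with ND levels of 6.67 to 7.74 where the lowest measurable was 6.19. The processing pulls ratios of such dim genes toward 0, so they say little about the ligands. Ifnar1, Ifnar2, Ifngr1 and Ifngr2 gave 0.12, 0.07, 0.06 and 0.07 in liver. In adipose tissue 31 were measured with a median of 0.16, and 5 were at least 1.5-fold higher, where 9.14% of all genes were. There Ifnlr1, the interferon lambda receptor (8.99 in HFD, 7.51 in ND; 1.48), Ifngr2 (11.75 in HFD, 10.36 in ND; 1.39) and the transcription factor Irf8 (1.09) were at least 2-fold higher, where 4.23% of all genes were. Ifngr1, the other chain of the interferon gamma receptor, went the other way, at 13.84 in HFD and 14.18 in ND (-0.34 ± 0.21). Ifnar1 gave 0.31 and Ifnar2 0.26. Among 58 other interferon-induced genes, 45 were measured on each array, with medians of 0.29 in liver (37 above 0, 6 at least 1.5-fold higher) and 0.24 in adipose tissue (33 above 0, 9 at least 1.5-fold higher). Of all genes, 52.3% lay above 0 and 2.46% were at least 1.5-fold higher in liver, and 49.3% and 9.14% in adipose tissue. The 6 in liver were Ifit3b, Tgtp2, Parp12, Samd9l, Ly6e and Ifi27l2a, at 0.62 to 0.72, and in adipose tissue Ifi27l2b stood far out at 3.90.

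Markers of other tissues moved on the same arrays. All 10 hepatocyte markers were measured on both arrays, and 10 adipocyte markers in adipose tissue and 7 in liver. Being measured therefore does not tell the tissues apart. The log2 summed ND level of the measured hepatocyte markers was 20.04 in liver and 16.45 in adipose tissue. That of the measured adipocyte markers was 13.85 in liver and 19.88 in adipose tissue. In adipose tissue all 10 small intestine markers were at least 2-fold higher in HFD (median 3.83; log2 summed level 18.52 in HFD, 13.50 in ND), all 10 hepatocyte markers at least 2-fold lower (median -4.55; 12.29 in HFD, 16.45 in ND), and exocrine pancreas (8 of 9 lower, median -1.97), skeletal muscle (8 of 8 below 0, 5 at least 2-fold, median -1.48) and male reproductive tract markers (6 of 6 lower, median -3.09) were lower too. B cell markers had a median of 0.60 there, T and NK cell markers 0.11, macrophage markers 0.07 and plasmacytoid dendritic cell markers 0.27. In liver, skeletal muscle markers were lower (7 of 9 at least 2-fold, median -1.47; summed level 14.19 in HFD, 15.64 in ND), while T and NK cell, macrophage, Kupffer cell, B cell and plasmacytoid dendritic cell markers had medians of 0.06, 0.13, 0.09, -0.23 and -0.01. Of the Kupffer cell markers in liver 5 lay above 0 and 1 below, Marco at -1.28. Of the plasmacytoid dendritic cell markers there 2 lay above 0 and 4 below, the lowest being Cox6a2 at -1.35. Granulocyte and endothelium markers had medians of -0.06 and 0.07 in liver and -0.20 and 0.22 in adipose tissue. Of all genes, 0.579% were at least 2-fold lower in liver, and 4.23% were at least 2-fold higher and 5.13% lower in adipose tissue. The part of any of these cells in the members' ratios was not tested.

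**Figure D5:**
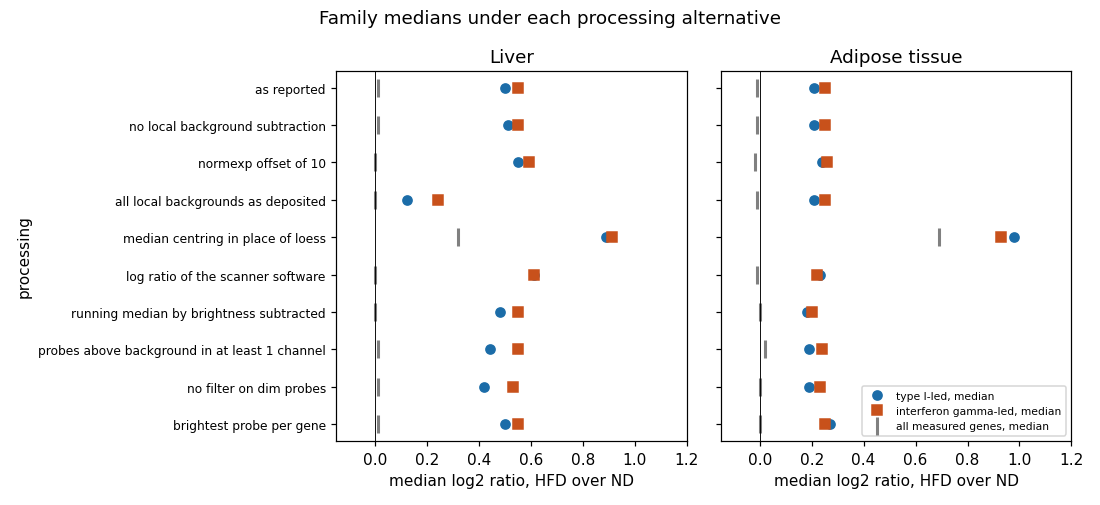
Median log2 ratio of HFD over ND of the members under each processing setting, liver and adipose tissue, by family, beside the median of all genes. The members' medians stay above that of all genes in each setting shown, with the liver values lowest when the deposited local backgrounds are used unchanged (0.12 and 0.24).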

How the data were processed

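Total RNA pools were hybridized to 2-colour Agilent mouse arrays, and the authors deposited 1 scanner file per tissue. Per the file headers, spot intensity was extracted with Feature Extraction 11.5.1.1 (protocol GE2_1105_Oct12, mm9 array design), while the submitters' processing notes give 8.5.1.1. The deposited log10 ratio of red over green was used only as an alternative, and the deposited error score of that ratio was converted to log2 and combined over probes.

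Median intensities were corrected with normexp (offset 50) in limma 3.58.1 (R 4.3.3), after local backgrounds marked as outliers were replaced by the array's median. Ratios were normalized by loess within each array, with control spots at weight 0, and channel levels by Aquantile between arrays. The offset pulls ratios of dim genes toward 0. Spots of a probe and then probes of a gene were averaged. Of 39418 probes in liver and 39427 in adipose tissue, 58.5% and 58.8% were measured, for 13642 and 14315 genes. No spot was saturated. The steps were tested on simulated data with even local backgrounds and with changes placed only in brighter spots. The handling of outlier backgrounds and of dim spots was not tested there. By the naming rule any member could be named. The members and gene lists were chosen with earlier results of these data known. With 1 array per tissue, counts past 1.5-fold and 2-fold replace tests. One gene of the pathway list is not reported here by name.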

Additional observations from a re-analysis of the deposited data

Results flagged for a closer look

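The HFD over ND log2 ratio lay on opposite sides of 0 in the tissues for 4 members, by more than 2-fold between them: liver minus adipose was 1.58 for Ifit1, 1.54 for Usp18, 1.12 for Ifit3 and -1.32 for Bst2. Each tissue had 1 array, so the difference was not tested. The adipose ratios of Ifit1, Usp18, Ifit3 and Bst2 were -0.30, -0.38, -0.33 and 0.30, each within 2 scanner errors of 0. Of all genes, 23.4% lay above 0 in liver and below 0 in adipose tissue, and 21.9% the reverse. The share of all genes also more than 2-fold apart was not computed. With the deposited local backgrounds Ifit1 (0.57) and Ifit3 (0.73) differed by less than 2-fold, Usp18 by 1.11 and Bst2 by -1.31. With arrays centred on the median in place of loess, Ifit1 (0.30), Usp18 (0.40) and Ifit3 (0.63) were above 0 in adipose tissue as well. All genes then had a median of 0.69 there, and Ifit3 differed by 0.58 between the tissues.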

How the results depend on the processing

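Of 72 alternative values of the family medians and counts, 61 stayed within the tolerance, 11 moved and 0 reversed in direction. Only a median could be called reversed there, as a count could only stay or move. For single members 611 of 729 stayed and 118 moved. A member could be called reversed only if its ratio was at least 1.5-fold, so sign changes of smaller ratios do not show in these counts. The difference between tissues was not among the 72. With local backgrounds as deposited, the liver medians were 0.12 (type I-led) and 0.24 (interferon gamma-led) and 2 members were at least 1.5-fold higher, where 0.777% of all genes were; 39 of 41 still lay above 0. With median centring, the liver medians were 0.89 and 0.91, with 34 members at least 1.5-fold higher (17% of all genes) and 0 lower, and the adipose medians 0.98 and 0.93, with 32 higher (57.2% of all genes). Centring moved the median of all genes to 0.32 in liver and 0.69 in adipose tissue. Relative to it, the members' median was 0.60 in liver and 0.27 in adipose tissue. The median difference between tissues, 0.25, was -0.05 with the deposited backgrounds and -0.18 with median centring. With the brightest probe per gene, 1 member was at least 1.5-fold lower in adipose tissue. The causes were not tested. The sign was the same in all settings for 38 of 41 members in liver and 29 of 40 in adipose tissue. Naming probes through accessions alone was not run as a separate setting, since the deposited files name no gene and every probe was named so. No paired analysis was possible because each tissue has 1 array and there are no replicates to pair or leave out. Dim members are limited by signal over background: Ifit2, Gbp5 and Tgtp1 in liver lay near the lowest measurable level.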
